A study of Mus musculus with 20 samples.

Results

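Toll-like receptor genes and the genes of their adaptors, chaperones and partners were followed through B cell receptor stimulation in cells with and without TAK1. The 10 genes were chosen by name and are Tlr1, Tlr2, Tlr3, Tlr4, Tlr6, Tlr9, Cd180, Ly86, Unc93b1 and Myd88. Each was read by 1 probe set, out of 19938 genes that had a probe set of their own, and all 10 were among the 11968 genes tested. RNA came from spleen B cells of C57BL/6 mice aged 8 to 12 weeks and of mixed sex, purified by removing CD43-bearing cells with magnetic beads. TAK1-deleted cells carried floxed TAK1 alleles (mb-1/TAK1f/f) and wild type cells intact ones (mb-1/TAK1+/+). The mb-1 label, a deleter active in the B lineage, stands on both genotypes. Cells of each genotype were taken at 0 h, without stimulation, and after 1, 3, 6 and 24 h with anti-IgM at 10 µg/ml, which engages the antigen receptor. There were 2 arrays in each of the 10 groups, 20 in all. Nothing in the labels tells if replicates were separate mice or if 0 h cells were kept in culture. The p-values therefore measure the spread between these arrays, and a culture effect in the changes from 0 h cannot be told apart from stimulation.

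Toll-like receptors recognise molecules of microbes. Some sit at the cell surface and others in endosomes, and most pass their signal to MyD88, an adaptor that brings kinases together and through them activates TAK1 and NF-κB. B cells express several of these receptors, which cooperate with the B cell receptor in the response to bacteria and to nucleic acids. At the surface, TLR1 and TLR6 each pair with TLR2 to bind bacterial lipoproteins, TLR4 detects lipopolysaccharide, and CD180 with its partner Ly86 modulates lipopolysaccharide responses of B cells. In endosomes, TLR3 binds duplex RNA and TLR9 binds CpG DNA, and Unc93b1 escorts these receptors from the endoplasmic reticulum.

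Promoters of 8 of the 10 genes were matched in RefSeq (GRCm38.p6), 11 promoters in all, each with 250 bases before and 50 after the start. Tlr4 and Unc93b1 had none in the table. They were searched on both strands for the κB consensus, for the interferon response motif (GAAA repeated after a gap of 2 bases), TGANTCA (AP-1), TGACGTCA (CRE), ATGCAAAT (octamer), CACGTG (E-box), TGTTTAC (FOXO) and GAGGAAG (PU.1). Matches lay in 7 of the 11 promoters, and 4 of those are shown here, of receptor genes with different courses after stimulation, 5′ to 3′ along the gene, with motif matches in capitals. Tlr2, chr3:83841559-83841858, minus strand, holds 3 κB matches that start at bases -173, -172 and -8 from the start, and the first pair overlap. Tlr6, chr5:64959117-64959416, minus strand, holds 2 overlapping interferon response matches, read on the other strand, and a further Tlr6 promoter in the table held no match. Tlr3, chr8:45410331-45410630, minus strand, holds 1 κB match. Tlr9, chr9:106222348-106222647, plus strand, holds 2 GAGGAAG matches, 1 of ATGCAAAT and 1 of TGANTCA.
Tlr2: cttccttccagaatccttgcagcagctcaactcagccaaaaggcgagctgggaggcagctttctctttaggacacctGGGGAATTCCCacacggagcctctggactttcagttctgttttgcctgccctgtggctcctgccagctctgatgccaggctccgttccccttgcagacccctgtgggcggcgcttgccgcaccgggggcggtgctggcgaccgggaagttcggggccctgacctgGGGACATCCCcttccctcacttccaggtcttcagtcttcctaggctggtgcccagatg
Tlr6: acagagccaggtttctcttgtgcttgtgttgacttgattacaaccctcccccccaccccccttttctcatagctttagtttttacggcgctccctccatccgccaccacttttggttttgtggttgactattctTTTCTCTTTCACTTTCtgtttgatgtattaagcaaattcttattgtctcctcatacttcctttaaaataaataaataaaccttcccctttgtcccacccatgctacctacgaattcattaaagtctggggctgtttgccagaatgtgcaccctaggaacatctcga
Tlr3: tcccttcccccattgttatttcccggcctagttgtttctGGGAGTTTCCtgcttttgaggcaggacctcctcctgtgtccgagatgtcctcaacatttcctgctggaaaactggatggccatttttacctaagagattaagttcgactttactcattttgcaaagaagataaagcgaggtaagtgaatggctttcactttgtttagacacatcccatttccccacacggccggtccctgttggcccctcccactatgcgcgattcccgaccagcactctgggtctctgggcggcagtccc
Tlr9: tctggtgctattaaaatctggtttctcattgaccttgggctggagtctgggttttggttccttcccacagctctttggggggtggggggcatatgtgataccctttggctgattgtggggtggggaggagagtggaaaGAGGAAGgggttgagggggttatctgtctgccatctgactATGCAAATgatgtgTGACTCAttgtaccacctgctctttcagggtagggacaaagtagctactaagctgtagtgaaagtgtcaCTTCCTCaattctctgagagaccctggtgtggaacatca
Of 32851 promoters of the same length, 8.46% held a κB match, 3.44% the interferon response motif, 7.81% TGANTCA, 1.74% ATGCAAAT and 13.6% GAGGAAG. These matches describe letters only. Among the other promoters, Myd88 held the interferon response motif, while 1 of the Tlr1 promoters held GAGGAAG and another CACGTG, which 7.15% of all promoters held. Both Cd180 promoters and that of Ly86 held no match. In the same table Tlr1 and Tlr6 lie on chromosome 5.

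After anti-IgM, transcripts of most of these genes fell in both genotypes by 3 h. Relative to 0 h at 1, 3, 6 and 24 h, TAK1-deleted cells had 5, 9, 8 and 5 genes lower and 1, 0, 0 and 1 higher. Among all tested genes, 19.3%, 41.7%, 35.8% and 27.6% were called at those times, with 10.2%, 22.1%, 17.3% and 12.7% lower and 9.1%, 19.6%, 18.5% and 14.9% higher. In wild type cells 5, 8, 8 and 8 were lower, with 1 higher at 1 h and 0 higher later, against 24.5%, 44.1%, 43.2% and 43.8% of all genes called. Of all genes 13.9%, 23.2%, 19.1% and 20.2% were lower and 10.6%, 20.9%, 24.1% and 23.6% higher in wild type cells. Calls here rest on limma with p-values adjusted over all tested genes (Benjamini-Hochberg), at a threshold of 0.05. The median change of the 10 genes at 3 h was -1.04 in TAK1-deleted cells and -1.19 in wild type cells on the log2 scale, and the median of all genes was 0.02 and 0.04 there. By group means, 5 genes in TAK1-deleted cells and 6 in wild type cells were lowest at 3 h. Comparisons with 0 h within a genotype share their 0 h arrays. Tlr3, Tlr4 and Tlr6 are in each of the lower counts. Each reached the level needed for testing on 5 of 20 arrays, with all 0 h arrays among those 5. Their part in these counts and medians is therefore not independent of that selection.

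**Figure D1:**
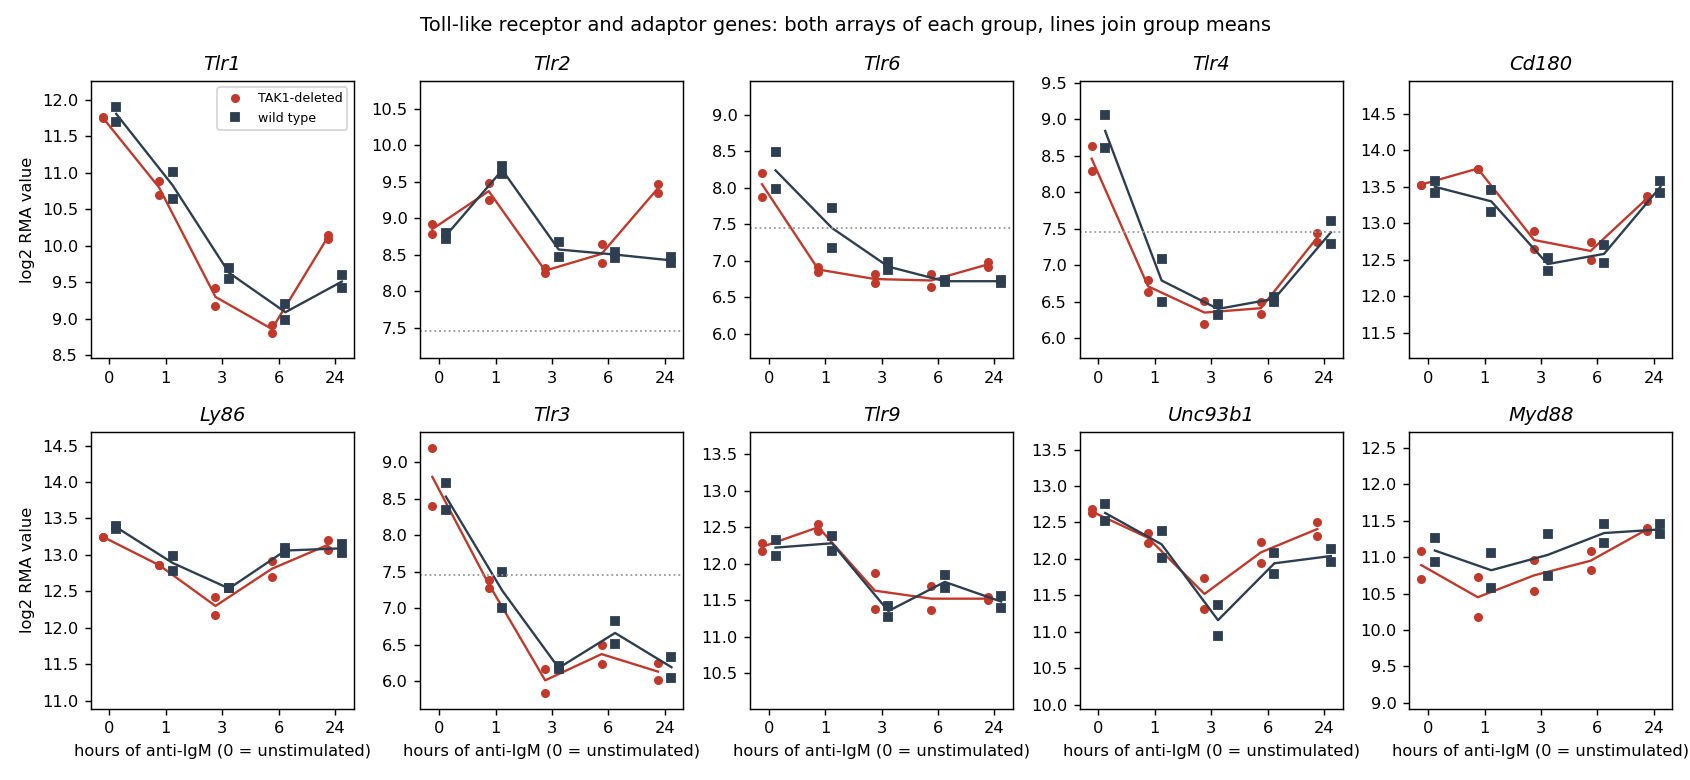
Log2 RMA value (vertical axis) of each gene against hours of anti-IgM (horizontal axis, equally spaced), with both arrays of each group as points and lines through the means. Circles are TAK1-deleted, squares wild type; each panel spans the same log2 range, and the dotted line is the filter threshold of 7.45. Tlr1 falls to 6 h in both genotypes, and Tlr2 stands apart at 24 h, at 9.47 and 9.34 in TAK1-deleted cells against 8.47 and 8.38 in wild type cells.

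Tlr1, the partner of TLR2 for triacylated lipoproteins, fell at all 4 times in both genotypes. In TAK1-deleted cells Tlr1 was 11.76 and 11.75 at 0 h, 10.89 and 10.70 at 1 h, 9.42 and 9.18 at 3 h, 8.91 and 8.81 at 6 h, then 10.15 and 10.10 at 24 h (log2 RMA values of both arrays). Tlr1 in wild type cells was 11.91 and 11.70, 11.01 and 10.64, 9.70 and 9.55, 9.20 and 8.98, and 9.60 and 9.42 at the same times. No stimulated array reached the 0 h level, and the lowest arrays were those of 6 h in both genotypes. At 6 h the change from 0 h was -2.90 ± 0.15 (SE) in TAK1-deleted cells (limma, adjusted p = 7.73e-10) and -2.71 ± 0.15 in wild type cells (1.22e-09). By 24 h it was -1.63 in TAK1-deleted cells (5.58e-07) and -2.30 in wild type cells (6.22e-09). Between 6 and 24 h Tlr1 rose by 1.27 ± 0.15 in TAK1-deleted cells (1.61e-05), and wild type cells gave 0.42 ± 0.15 (0.0592; 0.00124 with the replicate number as a block).

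Tlr2, the shared partner of the lipoprotein receptors, was the exception at 1 h. TAK1-deleted cells gave Tlr2 values of 8.92 and 8.78 at 0 h, 9.48 and 9.25 at 1 h, 8.31 and 8.25 at 3 h, 8.64 and 8.39 at 6 h, then 9.47 and 9.34 at 24 h. Tlr2 in wild type cells was 8.80 and 8.72, 9.60 and 9.71, 8.47 and 8.67, 8.53 and 8.46, and 8.47 and 8.38. Both arrays of 1 h lay above those of 0 h in either genotype. At 1 h the rise over 0 h was 0.52 ± 0.13 in TAK1-deleted cells (adjusted p = 0.00884) and 0.90 ± 0.13 in wild type cells (7.57e-05). The TAK1-deleted call at 1 h was lost without replicate 2 of 0 h (0.45, adjusted p = 0.0741) or replicate 1 of 1 h (0.40, 0.105). The rise was brief: from 1 to 3 h Tlr2 fell by 1.09 in each genotype (1.35e-05 in TAK1-deleted cells and 9.66e-06 in wild type cells). At 3 h it was below 0 h in TAK1-deleted cells by 0.57 ± 0.13 (0.00192), and wild type cells gave -0.19 ± 0.13 (0.253). At 6 h the change was -0.34 in TAK1-deleted cells (0.053; 0.0143 with the replicate block) and -0.27 in wild type cells (0.11; 0.0434 with the block). At 24 h TAK1-deleted cells were 0.56 ± 0.13 above their 0 h level (0.00403), and wild type cells changed by -0.34 ± 0.13 (0.0437). That wild type call was lost with any of its 4 arrays left out (-0.38 to -0.30). It was also lost with no filter on low values (adjusted p = 0.0748), quantile normalization (0.0775), centring of arrays (0.149) and separate fits (0.221).

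Tlr6, the partner of TLR2 for diacylated lipoproteins, fell below the threshold of 7.45, the median of all values on the arrays, and did not return. TAK1-deleted cells gave Tlr6 values of 8.21 and 7.88 at 0 h, 6.92 and 6.84 at 1 h, 6.69 and 6.82 at 3 h, 6.82 and 6.64 at 6 h, then 6.92 and 6.99 at 24 h. Tlr6 in wild type cells was 8.49 and 7.99, 7.73 and 7.17, 6.87 and 6.98, 6.71 and 6.73, and 6.73 and 6.70. The 4 arrays of 0 h and 1 wild type array of 1 h were the only ones at or above the threshold. The change from 0 h was called at all 4 times in each genotype, and lay between -1.31 and -1.09 in TAK1-deleted cells and between -1.53 and -0.79 in wild type cells. The wild type call at 1 h (-0.79, adjusted p = 0.00408) was lost without replicate 1 of 0 h (-0.54, 0.083) or replicate 2 of 1 h (-0.52, 0.0777).

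Tlr4, the lipopolysaccharide receptor, fell early and regained part of the loss by 24 h. TAK1-deleted cells gave Tlr4 values of 8.63 and 8.29 at 0 h, 6.79 and 6.63 at 1 h, 6.51 and 6.19 at 3 h, 6.33 and 6.49 at 6 h, then 7.32 and 7.44 at 24 h. Tlr4 in wild type cells was 9.06 and 8.61, 7.08 and 6.49, 6.32 and 6.47, 6.57 and 6.50, and 7.61 and 7.29. At 1 h the change from 0 h was -1.75 ± 0.20 in TAK1-deleted cells (adjusted p = 1.09e-05) and -2.05 ± 0.20 in wild type cells (1.49e-06). From 6 to 24 h Tlr4 rose by 0.96 ± 0.20 in TAK1-deleted cells (0.00283) and by 0.91 ± 0.20 in wild type cells (0.00385). The wild type rise was not called without replicate 1 of 24 h (0.75, 0.054). At 24 h Tlr4 was still below 0 h, with changes of -1.09 in TAK1-deleted cells (7e-04) and -1.39 in wild type cells (3.5e-05). Tlr3, Tlr4 and Tlr6 each reached the threshold on 5 of 20 arrays, so their folds may be understated, since RMA values of dim probe sets flatten toward background. All arrays of 0 h were among those 5 for each gene. Their passing the filter is therefore not independent of their falls from 0 h.

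Cd180, which encodes a relative of TLR4 without its signalling tail, dipped at 3 and 6 h and was back by 24 h. TAK1-deleted cells gave Cd180 values of 13.53 and 13.53 at 0 h, 13.75 and 13.75 at 1 h, 12.89 and 12.65 at 3 h, 12.74 and 12.50 at 6 h, then 13.37 and 13.30 at 24 h. Cd180 in wild type cells was 13.58 and 13.42, 13.45 and 13.15, 12.53 and 12.35, 12.70 and 12.45, and 13.58 and 13.42. In both genotypes the arrays of 3 and 6 h lay below those of every other time. At 3 h the change from 0 h was -0.76 ± 0.12 in TAK1-deleted cells (adjusted p = 0.000104) and -1.06 ± 0.12 in wild type cells (3.34e-06). At 24 h it was -0.19 in TAK1-deleted cells (0.275; 0.0346 with the replicate block) and 0.00 in wild type cells (0.985). At 1 h the changes were 0.22 in TAK1-deleted cells (0.255; 0.0225 with the block) and -0.20 in wild type cells (0.255; 0.0281 with the block).

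Ly86, which encodes the secreted partner that holds CD180 at the surface, fell by less than 1 log2 unit. TAK1-deleted cells gave Ly86 values of 13.25 and 13.24 at 0 h, 12.86 and 12.86 at 1 h, 12.42 and 12.18 at 3 h, 12.92 and 12.70 at 6 h, then 13.21 and 13.07 at 24 h. Ly86 in wild type cells was 13.40 and 13.35, 12.99 and 12.78, 12.54 and 12.54, 13.09 and 13.02, and 13.15 and 13.03. The lowest arrays were those of 3 h, with changes of -0.95 ± 0.10 in TAK1-deleted cells (adjusted p = 1.76e-06) and -0.83 ± 0.10 in wild type cells (5.6e-06). From 3 to 6 h Ly86 rose by 0.51 in TAK1-deleted cells (0.0062) and 0.52 in wild type cells (0.00462). The first call was lost without replicate 2 of 3 h (0.39, 0.086) or replicate 1 of 6 h (0.40, 0.106), and the wild type call without replicate 1 of 6 h (0.48, 0.0657). Smaller falls from 0 h were less stable. The TAK1-deleted fall at 1 h (-0.39, 0.0118) was lost without any of its 4 arrays (-0.39 to -0.38, 0.0542 to 0.067), and that at 6 h (-0.43, 0.00284) without replicate 2 of 6 h (-0.32, 0.0538). The wild type falls at 6 h (-0.32, 0.017) and 24 h (-0.29, 0.0302) were each lost with either 0 h array, or replicate 2 of the later time, left out (-0.34 to -0.22, 0.0516 to 0.186).

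Tlr3, the endosomal receptor for duplex RNA, fell at all 4 times in both genotypes and stayed low. TAK1-deleted cells gave Tlr3 values of 9.20 and 8.40 at 0 h, 7.38 and 7.27 at 1 h, 5.84 and 6.17 at 3 h, 6.49 and 6.24 at 6 h, then 6.25 and 6.02 at 24 h. Tlr3 in wild type cells was 8.71 and 8.35, 7.49 and 7.0, 6.17 and 6.20, 6.82 and 6.51, and 6.33 and 6.04. The 0 h arrays of each genotype lay above all its later ones, although the TAK1-deleted 0 h arrays differed by more than any other replicates of the gene. At 3 h the change was -2.79 ± 0.24 in TAK1-deleted cells (adjusted p = 1.66e-07) and -2.34 ± 0.24 in wild type cells (8.55e-07). At 24 h it was -2.67 in TAK1-deleted cells (4.47e-07) and -2.34 in wild type cells (8.57e-07).

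Tlr9, the CpG DNA receptor, fell later and by less than 1 log2 unit. TAK1-deleted cells gave Tlr9 values of 12.28 and 12.18 at 0 h, 12.45 and 12.55 at 1 h, 11.87 and 11.38 at 3 h, 11.69 and 11.36 at 6 h, then 11.54 and 11.50 at 24 h. Tlr9 in wild type cells was 12.33 and 12.11, 12.38 and 12.18, 11.42 and 11.27, 11.84 and 11.66, and 11.56 and 11.39. At 1 h the changes from 0 h were 0.27 ± 0.15 in TAK1-deleted cells (adjusted p = 0.263; 0.0389 with the replicate block) and 0.06 in wild type cells (0.816). From 3 h on all arrays lay below those of 0 and 1 h. At 24 h the change was -0.71 ± 0.15 in TAK1-deleted cells (0.00245) and -0.74 ± 0.15 in wild type cells (0.000923). The TAK1-deleted call at 3 h (-0.60, 0.00478) was lost without replicate 2 of 3 h (-0.35, 0.0954), and the wild type call at 6 h (-0.47, 0.0213) without replicate 1 of 0 h (-0.36, 0.157) or replicate 2 of 6 h (-0.38, 0.149).

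Unc93b1, the escort of endosomal receptors, had a trough at 3 h. TAK1-deleted cells gave Unc93b1 values of 12.68 and 12.63 at 0 h, 12.36 and 12.22 at 1 h, 11.74 and 11.31 at 3 h, 12.23 and 11.95 at 6 h, then 12.51 and 12.31 at 24 h. Unc93b1 in wild type cells was 12.75 and 12.52, 12.38 and 12.01, 11.37 and 10.94, 12.08 and 11.79, and 12.13 and 11.96. At 3 h the change from 0 h was -1.13 ± 0.18 in TAK1-deleted cells (adjusted p = 9.41e-05) and -1.48 ± 0.18 in wild type cells (5.85e-06). From 3 to 6 h wild type cells regained 0.78 ± 0.18 (0.0127), a call lost without replicate 2 of 3 h (0.57, 0.176) or replicate 1 of 6 h (0.64, 0.161), and TAK1-deleted cells gave 0.57 (0.0769; 0.000104 with the block). At 6 h the change from 0 h was -0.56 in TAK1-deleted cells (0.0214) and -0.70 in wild type cells (0.00469). The TAK1-deleted call was lost without either 0 h array (-0.54 and -0.58, 0.0887 and 0.067) or replicate 2 of 6 h (-0.42, 0.18), and the wild type call without replicate 2 of 6 h (-0.55, 0.0642). By 24 h TAK1-deleted cells were at -0.25 (0.357; 0.0265 with the replicate block) and wild type cells at -0.59 (0.0133), a call lost without replicate 1 of 0 h (-0.48, 0.109) or replicate 2 of 24 h (-0.50, 0.0934). At 1 h the values were -0.36 in TAK1-deleted cells (0.192; 0.0025 with the block) and -0.44 in wild type cells (0.0884; 0.000381 with the block).

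Myd88, the adaptor shared by nearly all Toll-like receptors and by interleukin-1 family receptors, was not called in any comparison with 0 h. TAK1-deleted cells gave Myd88 values of 11.09 and 10.70 at 0 h, 10.73 and 10.18 at 1 h, 10.96 and 10.53 at 3 h, 11.08 and 10.82 at 6 h, then 11.40 and 11.36 at 24 h. Myd88 in wild type cells was 11.26 and 10.93, 11.06 and 10.58, 11.31 and 10.74, 11.46 and 11.19, and 11.45 and 11.31. Replicate 1 exceeded replicate 2 in 10 of 10 groups, by 0.34 on average, the widest replicate gap of the 10 genes. With the replicate number as a block, Myd88 passed at 1 h in TAK1-deleted cells (-0.44, adjusted p = 0.00347) and wild type cells (-0.28, 0.049). It also passed at 24 h in TAK1-deleted cells (0.49, 0.0012) and wild type cells (0.29, 0.031).

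**Figure D2:**
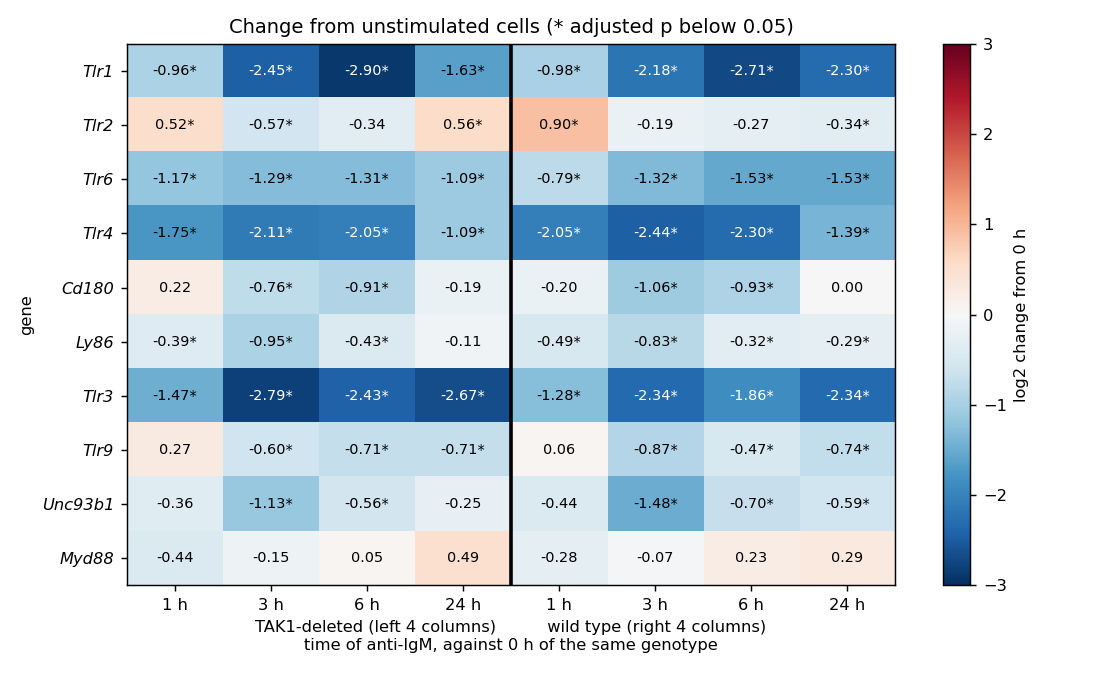
Log2 change from 0 h (colour and printed number) for each gene (vertical) at 1, 3, 6 and 24 h (horizontal), TAK1-deleted in the left 4 columns and wild type in the right 4; an asterisk marks an adjusted p below 0.05. Tlr1, Tlr4 and Tlr3 hold the darkest cells, down to -2.90, and Myd88 has no asterisk.

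Changes were also taken between neighbouring times. Tlr4 changed from 0 to 1 h by -1.75 in TAK1-deleted cells and -2.05 in wild type cells, and from 1 to 3 h by -0.36 (adjusted p = 0.201) and -0.39 (0.15; 0.0474 with the replicate block) in TAK1-deleted and wild type cells. Cd180, Tlr9 and Unc93b1 were not called from 0 to 1 h in either genotype and were called lower from 1 to 3 h in both, with changes of -0.98, -0.87 and -0.77 in TAK1-deleted cells and -0.86, -0.93 and -1.04 in wild type cells. From 1 to 3 h, 7 of the 10 genes were lower and 0 higher in TAK1-deleted cells (32.6% of all genes called, 17.2% lower and 15.4% higher), and 8 were lower and 0 higher in wild type cells (36.1%, with 18% lower and 18.1% higher). Myd88 was called higher in TAK1-deleted cells with the block (0.29, 0.0346; 0.403 without it). The wild type calls of Tlr6 (-0.53, 0.0322) and Ly86 (-0.35, 0.0131) were each lost without replicate 1 of 1 h (-0.25, 0.355, and -0.24, 0.143) or either array of 3 h (-0.58 to -0.47, 0.0745 to 0.151, and -0.35 to -0.34, 0.0557 to 0.0562). The TAK1-deleted call of Unc93b1 (-0.77, 0.00365) was lost without replicate 2 of 3 h (-0.55, 0.058). From 3 to 6 h the calls were 1 higher and 0 lower in TAK1-deleted cells (6.08% of all genes, 3.66% higher and 2.42% lower), and 2 higher and 1 lower in wild type cells (8.71%, with 5.83% higher and 2.87% lower). The lower one was Tlr1 in wild type cells (-0.53, adjusted p = 0.0348), lost without any of its 4 arrays (-0.64 to -0.42, 0.0854 to 0.274). TAK1-deleted cells gave -0.44 (0.0922; 0.00165 with the replicate block). With the block Tlr3 (0.48, 0.0489) and Tlr9 (0.40, 0.00524) were also called higher in wild type cells, against 0.253 and 0.126 without it. From 6 to 24 h, 5 genes were higher and 0 lower in TAK1-deleted cells (18.9% of all genes, 10.8% higher and 8.05% lower), against 2 higher and 0 lower in wild type cells (19.4%, with 9.02% higher and 10.4% lower). The 5 were Tlr1, Tlr2, Tlr4, Cd180 and Ly86, and the 2 in wild type cells were Tlr4 and Cd180. These counts change with the replicate block. Unc93b1 (0.32, 0.00684; 0.261 without it) and Myd88 (0.43, 0.004; 0.237 without it) were then also called higher in TAK1-deleted cells. In wild type cells Tlr1 was then called higher, and Tlr3 (-0.48, 0.037; 0.184 without it) and Tlr9 (-0.27, 0.0367; 0.252 without it) lower. Cd180 rose by 0.72 ± 0.12 in TAK1-deleted cells (0.000545) and by 0.92 ± 0.12 in wild type cells (4.5e-05). The Ly86 call (0.33, 0.0314) was lost without replicate 2 of 6 h (0.22) or either array of 24 h (0.26 and 0.40). It was also lost with no filter on low values (0.0581), quantile normalization (0.101), centring of arrays (0.057) and no intensity trend (0.0747). Whether these late steps differed between genotypes was not tested as such.

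Between genotypes at the same time, 3 of 50 comparisons were called, each higher in TAK1-deleted cells. That direction depends on the fit. With the replicate number as a block 12 were called, and Tlr1, Tlr6, Ly86 and Myd88 were then lower in TAK1-deleted cells at some times (values below). At 0 h none of the 10 genes was called, and 0 had an unadjusted p below 0.05 in limma (2.32% of all genes called, 1.5% higher and 0.819% lower). The widest 0 h difference was that of Tlr4, with a mean of 8.46 in TAK1-deleted cells and 8.84 in wild type cells (difference -0.37, 95% interval -0.80 to 0.05). At 1 h 1 gene was called (4.28% of all genes, 2.07% higher and 2.21% lower) and at 24 h 2 (12.2%, with 7.04% higher and 5.18% lower). At 3 h 0 were called (2.71%, with 1% higher and 1.7% lower) and at 6 h 0 (2.53%, with 0.927% higher and 1.6% lower). Unadjusted p fell below 0.05 for 4 genes at 3 h and 1 at 6 h. In 49 of the 50 comparisons the 95% interval lay within 1 log2 unit of 0, the exception being Tlr2 at 24 h.

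**Figure D3:**
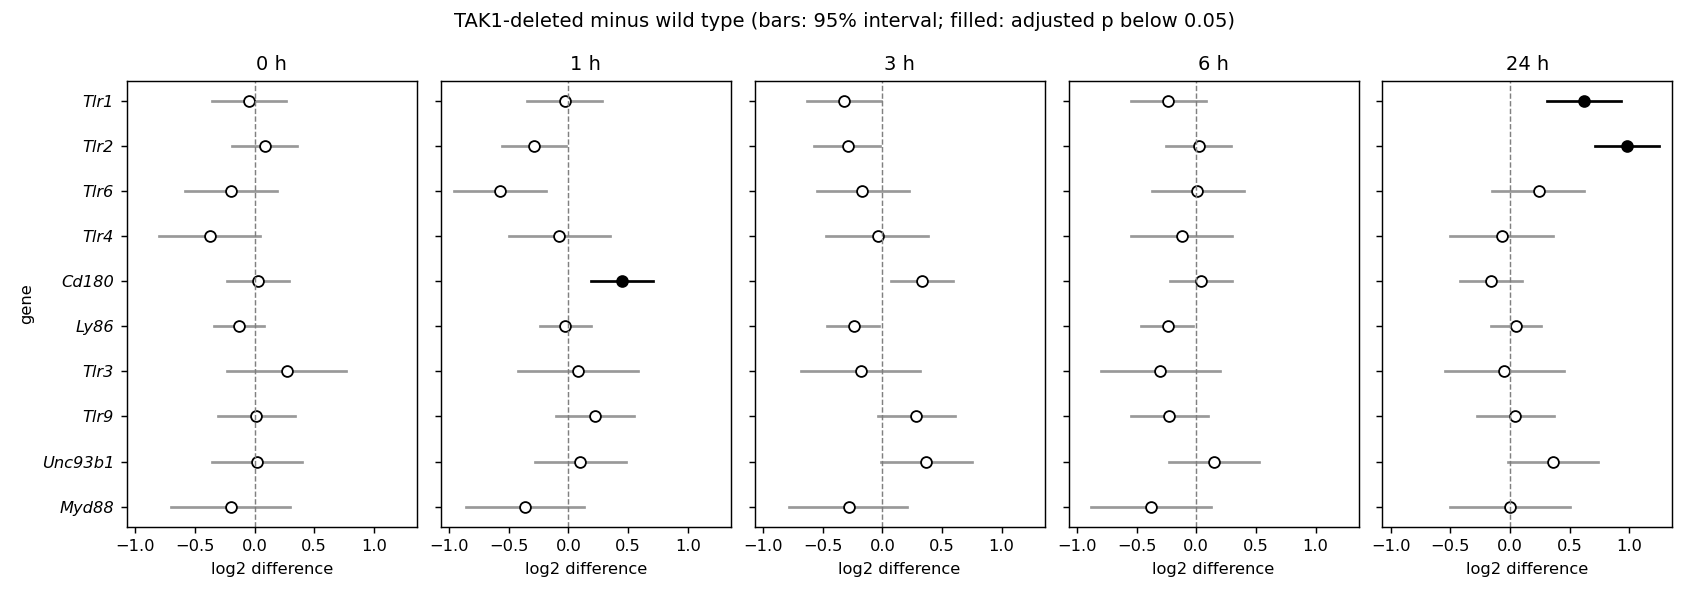
Log2 difference, TAK1-deleted minus wild type (horizontal axis), of each gene (vertical axis) at 5 times, with 95% intervals as bars; filled points have an adjusted p below 0.05. Filled points are Cd180 at 1 h (0.45), Tlr1 at 24 h (0.62) and Tlr2 at 24 h (0.98).

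Tlr2 at 24 h was the largest genotype difference of the 10 genes. The difference was 0.98 ± 0.13 (95% interval 0.71 to 1.25, adjusted p = 0.000112), a 1.97-fold higher level in TAK1-deleted cells, and it stayed called with each of the 4 arrays left out (0.92 to 1.05). The change from 0 h differed between genotypes by 0.89 ± 0.18 for Tlr2 (95% interval 0.51 to 1.28, 0.00504). At 24 h 8.66% of all genes were called for this difference, 4.62% higher and 4.04% lower. Tlr1 at 24 h was 0.62 ± 0.15 higher in TAK1-deleted cells (0.31 to 0.93, adjusted p = 0.011). That call was lost without wild type replicate 2 (0.53, 0.0813), TAK1-deleted replicate 1 (0.59, 0.079) or TAK1-deleted replicate 2 (0.64, 0.06). The difference in its change from 0 h, 0.67 ± 0.21, was not called (0.0582), and was called with the replicate block (0.000793), as was that of Unc93b1 (0.34, 0.0493; 0.552 without the block). Tlr6, the other partner of TLR2, gave 0.24 (-0.15 to 0.62, 0.501).

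Cd180 at 1 h was 0.45 ± 0.12 higher in TAK1-deleted cells (95% interval 0.19 to 0.71, adjusted p = 0.0476). Its arrays did not overlap, at 13.75 and 13.75 in TAK1-deleted cells against 13.45 and 13.15 in wild type cells. The call was lost without wild type replicate 2 (0.30) or either TAK1-deleted replicate (0.45 both times). It was also lost with no filter on low values (adjusted p = 0.0767), centring of arrays (0.142), no intensity trend (0.098) and separate fits (0.123). The change from 0 h to 1 h differed by 0.42 ± 0.17 between genotypes, which was not called (adjusted p = 1). For differences in the change from 0 h, 0 of the 10 genes were called at 1, 3 and 6 h, where 0.109%, 0.0585% and 0.284% of all genes were (0%, 0% and 0.0919% higher, 0.109%, 0.0585% and 0.192% lower). Unadjusted p was below 0.05 for 1 gene at 1 h and for 0 at 3 and 6 h.

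With the replicate number as a block, 12 comparisons between genotypes at the same time were called in place of 3. At 1 h the added ones were Tlr6 (-0.57, adjusted p = 0.0166) and Myd88 (-0.36, 0.0328). Tlr6 at 1 h was also called without wild type replicate 2 (-0.85, 0.0209), and its main value was 0.104. At 3 h they were Tlr1 (-0.32, 0.033), Cd180 (0.33, 0.00509), Ly86 (-0.24, 0.0369) and Unc93b1 (0.37, 0.00941). At 6 h Ly86 (-0.24, 0.0285) and Myd88 (-0.38, 0.0293) were added, and at 24 h Unc93b1 (0.36, 0.00328). Averaged over the 5 times, 0 of the 10 genes were called in limma without the block (11.6% of all genes called, 6.65% higher and 4.94% lower), with an unadjusted p below 0.05 for 4. With the block 4 were called: Cd180 (0.14, 0.00305) and Unc93b1 (0.20, 0.00061) higher in TAK1-deleted cells, Ly86 (-0.12, 0.00795) and Myd88 (-0.25, 0.00082) lower.

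Markers of B cells and of other cells were read in the same comparisons. B cell markers, 11 genes, were above the threshold in every group, and 0 of 11 were called between genotypes from 0 to 6 h in the fit without the replicate block. Relative to 0 h at 3 h, 8 of 11 were lower in TAK1-deleted cells and 9 of 11 in wild type cells. Of all tested genes 22.1% and 23.2% were lower at 3 h in TAK1-deleted and wild type cells. Of 15 monocyte or macrophage markers, 15 were lower at 3 h in each genotype, with medians of -3.02 in TAK1-deleted cells and -2.88 in wild type cells. Their summed signal was 35944 to 37873 at 0 h, 13700 to 15007 at 1 h, 5574 to 6290 at 3 h, 5293 to 5740 at 6 h and 19450 to 21964 at 24 h in TAK1-deleted cells. Wild type cells had 37185 to 39751, 10697 to 13402, 6328 to 6390, 6720 to 7352 and 9722 to 11050. At 6 h both arrays of TAK1-deleted cells were below the threshold for 8 of the 15, and of wild type cells for 9, C1qa, C1qb, C1qc, Fcgr1 and Cd163 among them in each. Fcgr1 and Cd163 were below it on both arrays at 1, 3, 6 and 24 h in each genotype, so they passed the filter only through 0 h. The falls of Fcgr1 and Cd163 from 0 h are therefore no independent result. Dendritic cell markers, 8 genes, fell for 6 in each genotype at 3 h. These cells also express Toll-like receptors, and the part of these markers in the falls was not tested. In bulk RNA, fewer cells of a type and less RNA per cell cannot be told apart.

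At 24 h, where Tlr2 and Tlr1 were higher in TAK1-deleted cells, so were 10 of the 15 monocyte or macrophage markers (median 1.27 log2 units, with 1 lower). The other 8 of the 10 genes were not called between genotypes at 24 h, among them Tlr4 (-0.07), Tlr6 (0.24) and Tlr3 (-0.05). Of all tested genes 7.04% were higher and 5.18% lower at 24 h. Neutrophil markers were higher for 11 of 12 (median 1.66), with a summed signal of 9176 to 9491 in TAK1-deleted cells and 2035 to 2137 in wild type cells. Dendritic cell markers were higher for 3 of 8, at 2919 to 3060 in TAK1-deleted cells and 1500 to 1558 in wild type cells. B cell markers were higher for 2 of 11, at 62563 to 64741 in TAK1-deleted cells and 58295 to 60355 in wild type cells. T cell markers were lower for 4 of 9 at 0 h and higher for 4 of 9 at 24 h. At 24 h both TAK1-deleted arrays were below the threshold for 3 of the 15 monocyte or macrophage markers (Fcgr1, Cd163 and Ccr2) and 1 of the 12 neutrophil markers. Both wild type arrays were below it for 4 of the 15 and 7 of the 12. Platelet markers were higher for 3 of 4. Marginal zone B cell markers were higher for 3 of 8, at 7950 to 8921 in TAK1-deleted cells and 6934 to 7555 in wild type cells. Erythroid markers were higher in TAK1-deleted cells for 9, 9, 8, 7 and 0 of 9 at 0, 1, 3, 6 and 24 h, with a summed signal at 0 h of 17529 to 21057 in TAK1-deleted cells and 6086 to 6271 in wild type cells. At 0 h both wild type arrays were below the threshold for 3 of the 9, and both TAK1-deleted arrays for 0. Such genes may have passed the filter through TAK1-deleted arrays, so the erythroid counts are not independent of it. The part of these cell types in the Cd180, Tlr1 and Tlr2 differences was not tested. At 0, 1, 3 and 6 h, 1.5%, 2.07%, 1% and 0.927% of all tested genes were higher in TAK1-deleted cells. At 0 h 0.819% were lower.

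**Figure D4:**
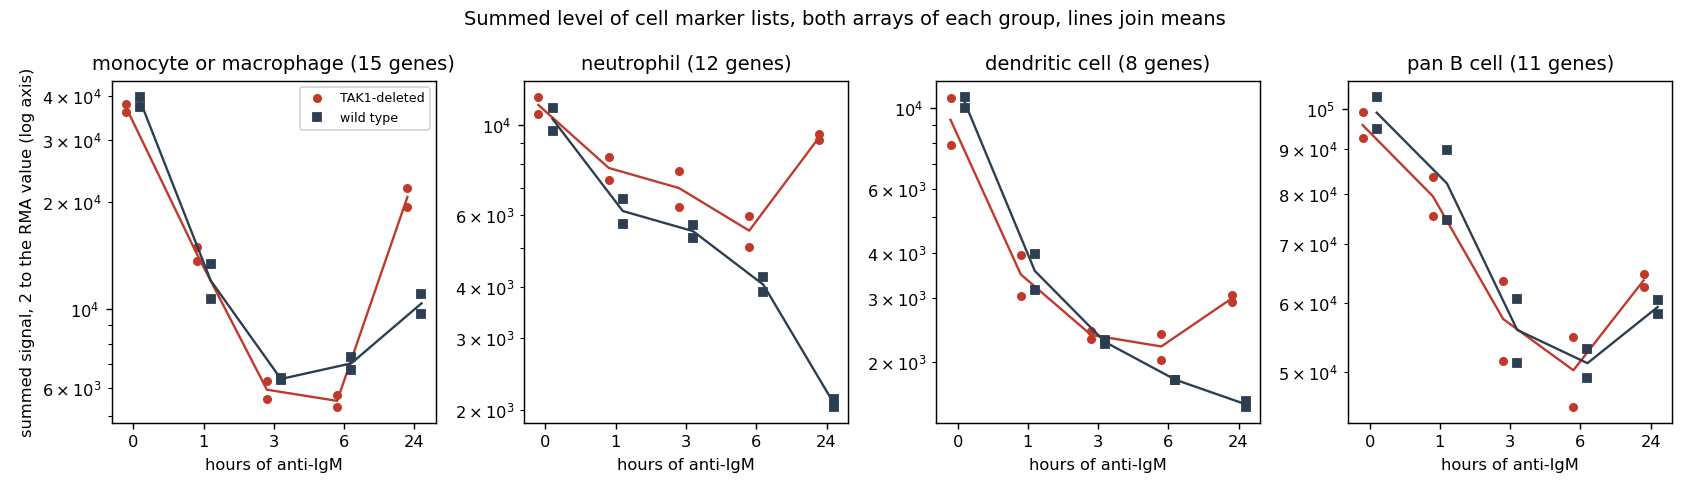
Summed signal of 4 marker lists (vertical log axis, 2 raised to the RMA value) against hours of anti-IgM, with both arrays of each group as points, circles for TAK1-deleted and squares for wild type, and lines through means. Monocyte or macrophage and neutrophil sums of TAK1-deleted cells lie above those of wild type cells at 24 h (19450 to 21964 against 9722 to 11050, and 9176 to 9491 against 2035 to 2137).

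Of 6 Toll-like receptors outside the 10 genes, 4 were tested (Tlr7, Tlr8, Tlr12 and Tlr13). All 4 were lower at 1 h in each genotype, and 3 of the 4, without Tlr7, at 3 h. Among all tested genes 10.2% and 13.9% were lower at 1 h in TAK1-deleted and wild type cells, and 22.1% and 23.2% at 3 h. Tlr8 and Tlr12 reached the threshold on 4 and 3 arrays, so the filter may have kept them for high 0 h values. Their falls are then no independent result. Tlr12 calls at 1 h were lost without replicate 1 of 0 h (-0.40 in TAK1-deleted cells, -0.47 in wild type cells) or an array of 1 h (-0.43, -0.47). Tlr7, an endosomal RNA receptor and above the threshold on 20 of 20 arrays, changed at 1 h by -1.10 ± 0.27 in TAK1-deleted cells (adjusted p = 0.00789) and by -0.80 ± 0.27 in wild type cells (0.0384). At 6 h the Tlr7 change was 0.25 in TAK1-deleted cells (0.511) and 0.85 in wild type cells (0.0168), and the test of the difference between them is not given here. Each of these Tlr7 calls was lost without either of 2 arrays. The TAK1-deleted call at 1 h was lost without replicate 1 of 0 h (-0.91, 0.0922) or replicate 2 of 1 h (-0.82, 0.112). The wild type call at 1 h was lost without replicate 1 of 0 h (-0.58, 0.289) or replicate 2 of 1 h (-0.47, 0.362), and that at 6 h without replicate 2 of 0 h (0.63, 0.152) or replicate 1 of 6 h (0.75, 0.106). At 3 h Tlr8 changed by -2.55 ± 0.16 in TAK1-deleted cells (adjusted p = 5.9e-09) and by -2.84 ± 0.16 in wild type cells (1.87e-09). Tlr13, which senses bacterial ribosomal RNA in mice, changed at 3 h by -2.40 ± 0.31 in TAK1-deleted cells (1.42e-05) and by -2.34 ± 0.31 in wild type cells (1.59e-05). At 24 h Tlr8 was 1.13 ± 0.16 higher in TAK1-deleted cells (0.000178), with means of 6.80 there and 5.67 in wild type cells, all below the threshold. Tlr13 was 1.37 ± 0.31 higher (0.00861), a call lost without wild type replicate 2 (1.11, 0.0831) or TAK1-deleted replicate 1 (1.39, 0.0526) or replicate 2 (1.34, 0.0653).

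Of 5 co-receptor and ligand handling genes, 2 were higher in TAK1-deleted cells at 24 h and 0 lower. Among all tested genes 7.04% were higher at 24 h and 5.18% lower. Cd14, which hands lipopolysaccharide to TLR4 and is a monocyte gene, was 1.59 ± 0.17 higher (adjusted p = 1.53e-05), at 8.56 in TAK1-deleted cells and 6.97 in wild type cells. Clec7a, the receptor for fungal glucans, was 1.19 ± 0.19 higher (0.000791). Of 11 folding and trafficking genes, 4 were higher and 1 lower. Ctsl, an endosomal protease that can process these receptors, was 1.59 ± 0.12 higher (1.09e-06), and Lgmn, another, 0.81 ± 0.12 higher (0.000452). The other calls were Ctsb (0.50, 0.0111), Rab7b (0.48, 0.0232) and Hsp90b1 (-0.42, 0.00777), each lost without at least 2 of its 4 arrays (adjusted p up to 0.107, 0.188 and 0.125). At earlier times Ctsl at 0 h (0.60, 0.015; up to 0.211 without an array) and Cd36, a lipid receptor, at 6 h (-0.93, 0.00726; up to 0.0815 without an array) were called. Relative to 0 h at 3 h, 8 of the 11 were lower and 1 higher in each genotype. Among all tested genes 22.1% were lower and 19.6% higher in TAK1-deleted cells, and 23.2% and 20.9% in wild type cells. Ctsb changed by -1.76 ± 0.12 in TAK1-deleted cells (1.74e-08) and by -1.64 ± 0.12 in wild type cells (3.08e-08). Rab7b, a small GTPase of the late endosome, changed by -1.38 ± 0.13 in TAK1-deleted cells (4.59e-07) and by -1.39 ± 0.13 in wild type cells (3.58e-07).

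Of 4 tested adaptors and of 12 tested kinases and ligases, 0 were called between genotypes at any of the 5 times in the fit without the replicate block. Among all tested genes 2.32%, 4.28%, 2.71%, 2.53% and 12.2% were called at 0, 1, 3, 6 and 24 h. Ticam2, an adaptor of TLR4, was higher at 24 h than at 0 h, by 0.93 ± 0.14 in TAK1-deleted cells (adjusted p = 0.000153) and by 1.03 ± 0.14 in wild type cells (2.73e-05). Among the kinases and ligases, Peli1, a ligase that acts on IRAK proteins, changed at 24 h by -0.45 ± 0.19 in TAK1-deleted cells (0.103) and by -1.20 ± 0.19 in wild type cells (9.97e-05). The test of the difference between these Peli1 changes is not given here, and a call in 1 genotype alone does not show one. The deleted gene itself, Map3k7, which encodes TAK1, was not called between genotypes at any time, with means of 10.50 in TAK1-deleted cells and 10.24 in wild type cells at 0 h. Where its probes lie relative to the deleted part was not analysed here, so this probe set does not check the genotype.

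Similarity of course was described over the 10 group means, by Pearson's r against 4570 other tested genes whose means span at least 1 log2 unit. These points share arrays and a common time course, and no test applies. Nearest to Tlr1 were Pik3r1 (r = 0.992), Entpd1 (0.991) and C1qc (0.987), a complement gene on the macrophage list. Nearest to Tlr6 were Cx3cr1 (0.99), Cadm3 (0.98) and Abca9 (0.979). Tlr4 had Calhm2 (0.969), Fcgr1 (0.967), which is on the macrophage list too, and 1110059E24Rik (0.963). Fcgr1 passed the filter only through its 0 h arrays. Tlr2 was nearest to Btg2 (0.934), Thbs1 (0.914) and Jund (0.907). Cd180 was nearest to Tbc1d31 (0.974), C2cd5 (0.96) and Dclk2 (0.956), and Ly86 to Cd48 (0.972), Psmb9 (0.967) and Pdia4 (0.966). The endosomal genes had Slc25a53 (0.982) for Tlr3, Mctp2 (0.964) for Tlr9 and Abca2 (0.981) for Unc93b1, and Myd88 had Slfn2 (0.943). Among the 10 genes themselves r was 0.9 between Tlr1 and Tlr6, 0.91 between Tlr3 and Tlr6, and -0.28 between Tlr1 and Myd88.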

How the data were processed

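The 20 arrays were Affymetrix Mouse Gene 1.0 ST. The authors deposited log2 values made with RMA, and the submitters' processing notes name Affymetrix Expression Console 1.0. These were used as deposited. The genome build is not given in the sources used here. The number of arrays limits the precision, since arrays carry no read depth. Of 35556 probe sets, 21789 had 1 gene symbol, 1621 several and 12146 were not listed in the annotation. Probe sets with 1 symbol that reached the median of all values (7.45) on at least 2 arrays were kept, and the one with the highest mean stood for its gene, which left 11968 genes. All arrays entered a model of the 10 group means in limma (version 3.58.1, R 4.3.3; 24 contrasts, eBayes with an intensity trend, 10 residual degrees of freedom, two-sided). P-values were adjusted by Benjamini-Hochberg within each contrast, and ± marks the standard error. Replicates correlated across genes with r of 0.979 to 0.994.

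The labels number the replicates. Deviations from group means correlated between same-numbered arrays in 45 of 45 pairs of groups (0.19 to 0.77, median 0.54), so the numbers were taken to pair the arrays, from the data and not from the labels. For the 10 genes, the fit with that number as a block is given where it changes a call. For pathway list genes it was read only where the main fit made a call, and for marker lists it was not read. Calls that these lists would gain with the block are not given. Among all tested genes, calls between genotypes at 24 h rose from 1462 to 3442 with the block. On simulated data for TAK1-deleted minus wild type at 24 h (11968 genes), 29.9%, 73.1% and 100% of genes changed by 0.5, 1 and 2 log2 units were called. Only 67, 67 and 66 genes were changed by those amounts, with independent noise and no pairing of arrays or time course. These rates describe that setting and not the real comparison. The 10 genes, pathway lists, marker lists and tests were chosen with earlier results of these data known. All 10 genes are named in every comparison. Of each pathway list the largest called changes from 0 h could be named, up to 4 a comparison, and the text gives a choice of them made after their values were seen. All pathway list calls between genotypes at the same time are named. The 12 called differences in change from 0 h among pathway list genes are counted below and not named. The 3 genes of nearest course were found for each of the 10 genes. Alternatives were the block, other filters, quantile normalization, centring, no trend, separate fits, averaged probe sets and each array left out. The text names single arrays whose removal ended a call, and not every other alternative that did.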

Additional observations from a re-analysis of the deposited data

Results flagged for a closer look

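Tlr2, whose protein binds bacterial lipoproteins with TLR1 or TLR6, differed between genotypes in its change from 0 h to 24 h by 0.89 ± 0.18 on the log2 scale (limma, adjusted p = 0.00504). The test of that difference itself drew attention to it. TAK1-deleted cells were 0.56 above their 0 h level, in 2 of 2 arrays, and wild type cells were at -0.34, in 2 of 2 arrays. With each of the 8 arrays involved left out in turn the difference lay between 0.82 and 0.96 and stayed called (adjusted p = 0.00915 to 0.0292). Monocyte or macrophage markers rose in the same comparison for 9 of 15 genes and neutrophil markers for 9 of 12, and their part was not tested. Of all tested genes 4.62% were called higher in it.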

How the results depend on the processing

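Of 89 called combinations of gene and comparison among the 10 genes, 66 held under every alternative tried, and 0 reversed. For this count, and for the pathway lists below, only arrays of the compared groups were left out. With the replicate number as a block, calls numbered 12 in place of 3 between genotypes at each time, 3 in place of 1 for the difference in change from 0 h, and 4 in place of 0 averaged over the times, and 35 in place of 30 (wild type) and 37 in place of 29 (TAK1-deleted) against 0 h, and 37 in place of 26 for steps between neighbouring times. The block ended no call. Among all tested genes, calls also rose with the block in every comparison. At 3 h against 0 h they went from 4985 to 6738 in TAK1-deleted cells and from 5277 to 7060 in wild type cells. Quantile normalization gave 2 in place of 1 for the difference in change from 0 h (Tlr1, 0.66, added) and 2 in place of 0 averaged over the times (Cd180, 0.16, and Unc93b1, 0.24). With each array left out, calls ranged from 26 to 30 (TAK1-deleted against 0 h), 24 to 31 (wild type against 0 h), 1 to 3 (between genotypes), 1 to 2 (difference in change), 22 to 28 (steps, 26 with all arrays) and 0 to 1 (averaged). The causes were not tested. Leaving out an array leaves its group with 1, which is assumed to vary like the other groups. Of the pathway list calls, 44 of 72 in TAK1-deleted cells and 64 of 96 in wild type cells against 0 h held under every alternative, as did 11 of 27 between genotypes and 6 of 12 differences in change. Signals near background limit Tlr3, Tlr4 and Tlr6, and 2 arrays a group limit small differences.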

Other observations

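Tnfaip3, which encodes a deubiquitinase that restrains NF-κB, was lower in TAK1-deleted cells by 1.22 ± 0.16 at 1 h (change -1.22, limma, adjusted p = 0.000149), by 1.47 ± 0.16 at 3 h (change -1.47, 6.14e-05) and by 1.21 ± 0.16 at 6 h (change -1.21, 0.000345). These were the only calls among the 10 inhibitors at those times, and 0 were called at 0 h. At 24 h 4 of the 10 were higher in TAK1-deleted cells and 1 lower, and Tnip3, another inhibitor of NF-κB, was 1.10 ± 0.22 higher (0.00389). Of all tested genes 7.04% were higher at 24 h and 5.18% lower. The other 24 h calls were Dusp1 (1.20, 0.0162), Irak3 (0.76, 0.0371), Tnip1 (0.59, 0.00761) and Tnfaip3 (-0.50, 0.0462). Those of Dusp1 and Irak3 were lost without any of their 4 arrays, that of Tnip1 without replicate 2 of either genotype and that of Tnfaip3 without 3 of 4 arrays (up to 0.372). Dusp1, a MAP kinase phosphatase, rose at 1 h by 2.62 ± 0.30 in TAK1-deleted cells (1.17e-05) and by 2.22 ± 0.30 in wild type cells (4.75e-05).

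Of 6 listed receptors of the interleukin-1 family that signal through MyD88, 3 were tested. At 0 h 2 of the 3 were called lower in TAK1-deleted cells, both chains of the interleukin-18 receptor. Of all tested genes 0.819% were lower at 0 h. Il18r1, the ligand-binding chain of the interleukin-18 receptor, was lower in TAK1-deleted cells at 0 h (-1.38 ± 0.16, adjusted p = 0.000102) and 1 h (-1.31 ± 0.16, 0.000108), and at 3 h (-1.03, 0.0018) and 6 h (-0.72, 0.0246; up to 0.285 without an array). Its partner chain Il18rap was lower at 0, 1 and 3 h (-0.91, -0.89 and -0.84; 0.0277, 0.0199 and 0.0416), calls lost without several arrays (up to 0.372, 0.169 and 0.45). NK cell markers were lower in the same comparison at 0 h for 4 of 7 genes, with a summed signal of 3021 to 3564 in TAK1-deleted cells and 5893 to 6958 in wild type cells. T cell markers were lower for 4 of 9, at 5152 to 6694 in TAK1-deleted cells and 8762 to 11197 in wild type cells. Both cell types express Il18r1, and their part in its difference was not tested. In the interferon branch, Irf7 was 0.66 higher in TAK1-deleted cells at 24 h (0.0456), a call lost without any of its 4 arrays (0.122 to 0.225). Irf8 was higher at 3 h than at 0 h, by 0.42 ± 0.09 in TAK1-deleted cells (0.00204) and by 0.86 ± 0.09 in wild type cells (2.11e-06). The test of the difference between these Irf8 changes is not given here.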
